A study of Mus musculus with 12 samples.

Results

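Prss12, Prelp, Pnliprp1 and Atp2c2 are 4 of the 55335 gene entries counted in mouse small intestinal organoids. They were picked by symbol for a large fall from control to RANKL-treated organoids. RANKL is a cytokine under which intestinal epithelium forms M cells, which carry antigens from the lumen to lymphoid tissue. RNA was measured in 12 libraries, 3 in each of 4 groups, and all organoids came from 1 line, line26, wild type with Lgr5GFPDTR/+, derived from a single female mouse. Every group, controls included, thus carries an Lgr5 allele that holds GFP and the diphtheria toxin receptor. ENR control organoids stayed in ENR medium (EGF, Noggin and R-spondin) for 6 days. RANKL and RANKL II organoids first received CHIR99021, which activates Wnt signalling by blocking GSK3, with valproic acid, which blocks histone deacetylases. After a return to ENR they received RANKL at 100 ng/mL for 6 days, and RANKL+CSRM617 organoids also 40 µM CSRM617, a small molecule inhibitor of ONECUT2, a transcription factor. The sample names of the control libraries begin with CVENR, a prefix that no label explains. Whether the controls had CHIR99021 and valproic acid too could thus not be settled. Between ENR control and RANKL, effects of RANKL and of this pretreatment therefore cannot be told apart, and "with RANKL" names the group. Replicates are separate differentiation experiments of this line, so p-values measure the spread between experiments, not between animals.

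The genes encode 3 secreted proteins and 1 calcium pump of the secretory pathway. Prss12 encodes neurotrypsin, a secreted trypsin-type serine protease best known for cutting the proteoglycan agrin at synapses. Prelp encodes a small leucine-rich proteoglycan that binds collagen and the basement membrane proteoglycan perlecan. Pnliprp1 encodes a relative of pancreatic lipase with little known activity on triglycerides, and Atp2c2 encodes SPCA2, a Golgi pump for calcium and manganese found in secretory epithelia, whose cargo ions are needed for protein folding, glycosylation and export. A cell that exports protein loads its Golgi with calcium through such pumps, and secreted enzymes and matrix proteins leave by that route.

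The genes lie on different chromosomes, and their loci are given in GRCm38 from the GENCODE annotation. Prss12 spans 123446913 to 123506597 of chromosome 3, plus strand, with 11 exons, and Prelp 133910304 to 133921414 of chromosome 1, minus strand, with up to 3 exons. Pnliprp1 spans 58728887 to 58744169 of chromosome 19, plus strand, with up to 13 exons, and Atp2c2 119700009 to 119757717 of chromosome 8, plus strand, with up to 27 exons. RefSeq promoter windows in GRCm38.p6 were given for 3 of the 4 genes. They are shown because these genes were low in the same libraries. Each line holds the 250 bases before the RefSeq start, 5′ to 3′ on the strand of the gene, at chr3:123446663-123446912, chr1:133921402-133921651 and chr19:58728637-58728886 in this order. Capitals mark every match to the motifs given below.
Prss12: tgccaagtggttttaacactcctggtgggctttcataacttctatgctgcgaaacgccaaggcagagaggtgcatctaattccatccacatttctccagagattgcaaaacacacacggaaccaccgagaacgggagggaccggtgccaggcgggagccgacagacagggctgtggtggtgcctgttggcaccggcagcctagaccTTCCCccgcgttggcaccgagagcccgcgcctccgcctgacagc
Prelp: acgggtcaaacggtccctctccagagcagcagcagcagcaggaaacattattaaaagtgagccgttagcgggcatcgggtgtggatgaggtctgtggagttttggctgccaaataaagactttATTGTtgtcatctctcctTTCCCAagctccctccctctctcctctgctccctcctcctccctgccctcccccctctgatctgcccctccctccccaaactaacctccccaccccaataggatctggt
Pnliprp1: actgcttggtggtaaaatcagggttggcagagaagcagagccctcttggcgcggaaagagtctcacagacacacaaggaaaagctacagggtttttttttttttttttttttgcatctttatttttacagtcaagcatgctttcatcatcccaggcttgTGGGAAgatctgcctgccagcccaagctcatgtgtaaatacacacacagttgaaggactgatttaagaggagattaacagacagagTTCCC

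The motifs, searched on both strands, were TATAAA (the box bound by TBP), GGGCGG (the box bound by SP and KLF factors), CTTTGA (TCF/LEF), ACAAT (SOX), ATCGAT (a core bound by ONECUT factors), ATCAAT (a variant of that core), TTTATG (CDX), CAAAGT (HNF4), TGGGAA (RBPJ), CAGCTG (E-box of the ATOH1 type) and GGGAA (first part of an NF-kB site, contained in the RBPJ motif). This last motif, on either strand, was in 3 of 3 windows, and in 56.2% of 32817 promoter windows of the same length. TGGGAA was in 2 of 3, in Prelp 109 to 104 bases before the start and in Pnliprp1 91 to 86 bases before it, against 21.6% of all windows. ACAAT was in the Prelp window alone, against 27.7% of all. The other 8 motifs were in none of the 3 windows; all promoters held them at 0.728% (ATCGAT) to 32.7% (GGGCGG). GC content was 59.6% for Prss12, 55.6% for Prelp and 43.6% for Pnliprp1, against a median of 52.4%. These matches describe letters in the windows, and nothing was measured on binding there.

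Totals were 5795541 to 14041947 counts per library, and 1 count was worth 0.0801 to 0.228 CPM, the unit used here for counts scaled to library size by TMM within each table. Reads of ribosomal RNA, counted at Gm26917 and Gm42418, made up 21.9% to 35.5% of the counts in ENR control and 9.71% to 10.7% in RANKL. The RANKL II libraries had 6.44% to 6.71% and the RANKL+CSRM617 libraries 15.3% to 15.8%. The nuclear RNA Malat1 made up 0.675% to 0.757% of ENR control counts and 2.49% to 2.95% of RANKL counts. In the second table its share was 3.33% to 3.45% (RANKL II) and 2.37% to 2.53% (RANKL+CSRM617). All 10 markers of intestinal epithelium had counts in every group, with a summed level of 5089 to 5339 CPM in ENR control and 5168 to 7960 CPM elsewhere. In ENR control 5 of 10 stromal and endothelial markers had 0 counts (Col1a2, Col3a1, Thy1, Acta2, Cdh5), and the list summed to 6.26 to 7.49 CPM. Of 11 pancreatic acinar markers 7 had 0 counts there, Pnlip and Cpa1 among them. Fewer cells of a type and less RNA per cell cannot be told apart in such bulk libraries.

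In ENR control all 4 genes were present in each of the 3 libraries, and with RANKL each was at a small fraction of that level. Because this contrast picked them, the values that follow, gaps between the groups included, describe the genes and carry no test. The share of all genes with such gaps was not counted. Over all 13570 genes tested in this contrast, 28% were called lower and 28.7% higher with RANKL, 56.7% in either direction (edgeR quasi-likelihood test, adjusted p under 0.05). All 4 passed the filter on low counts through the ENR control libraries. Among the 13570, a log2 change of -4 or lower with a call was seen for 14 genes, or 0.103%. By size of the fall Prss12 stood at place 2, Prelp at 4, Pnliprp1 at 7 and Atp2c2 at 9.

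Prss12, the protease, had 26, 45 and 33 counts in the ENR control libraries, or 4.99, 6.00 and 7.54 CPM. In the RANKL libraries it had 1, 1 and 0 counts. The groups were far apart, and the level with RANKL rested on 2 reads in all. The ratio of ENR control to RANKL was 76.5, with an exact 95% binomial interval of 20.7 to 640.1 that covers counting error only. Prelp, the matrix proteoglycan, had 101, 128 and 100 counts in ENR control (19.4, 17.1 and 22.8 CPM) and 4, 1 and 4 with RANKL (0.449, 0.113 and 0.542 CPM). Every ENR control library was thus above every RANKL library. Its log2 change was -5.70 (SE 0.301), from 19.8 ± 2.91 to 0.368 ± 0.226 CPM (SD, n = 3).

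Pnliprp1, the lipase relative, had 55, 92 and 40 counts in ENR control, or 10.6, 12.3 and 9.14 CPM. With RANKL it had 5, 2 and 4 counts, or 0.561, 0.226 and 0.542 CPM. The groups did not overlap, and the log2 change was -4.57 (SE 0.310). Atp2c2, the Golgi calcium pump, was the most abundant of the 4, with 222, 235 and 190 counts in ENR control (42.6, 31.3 and 43.4 CPM). It kept the most reads with RANKL, 20, 23 and 8 (2.24, 2.60 and 1.08 CPM). Its log2 change was -4.25 (SE 0.218), from 39.1 ± 6.77 to 1.98 ± 0.793 CPM (SD, n = 3). The RANKL level was 1.31% of the ENR control level for Prss12, 1.86% for Prelp, 3.998% for Pnliprp1 and 5.36% for Atp2c2, from summed counts over scaled library sizes.

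**Figure D1:**
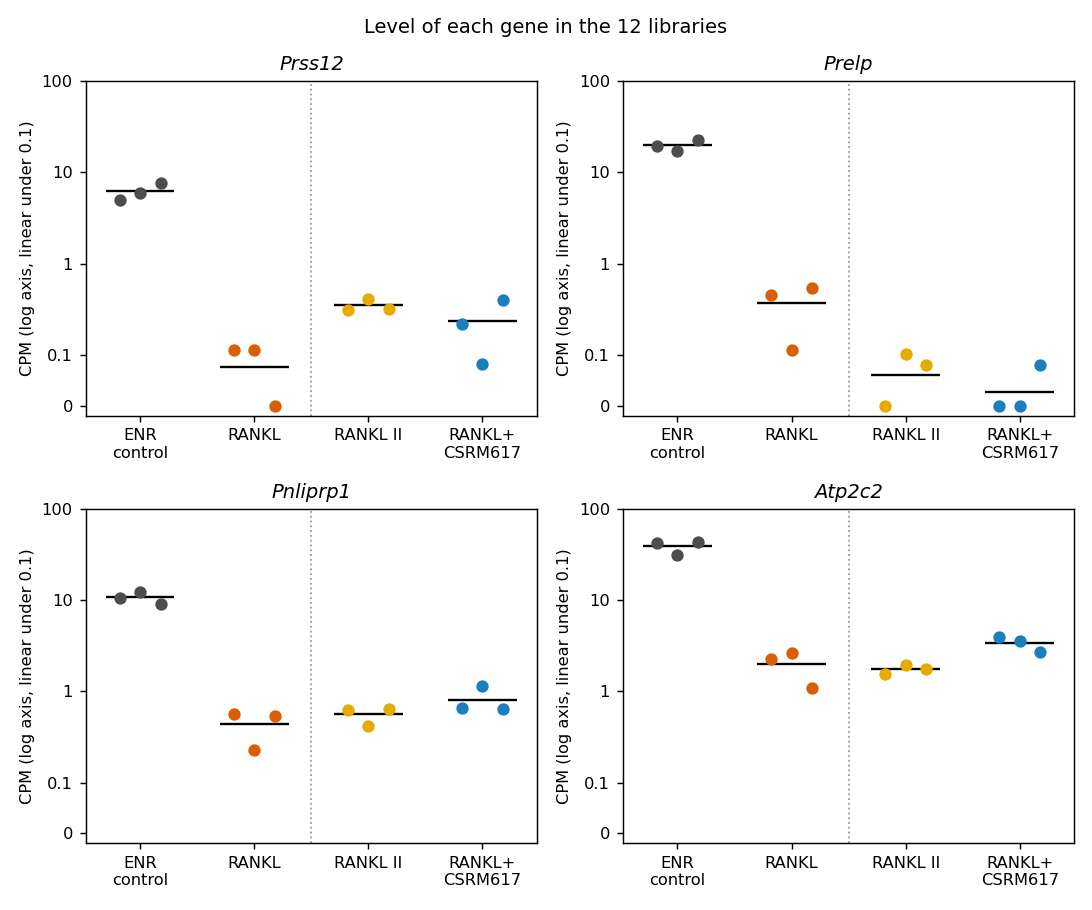
Level of Prss12, Prelp, Pnliprp1 and Atp2c2 in CPM (log axis, linear under 0.1) in each of the 12 libraries; points are libraries in the order of replicates 1 to 3, bars are group means, and the dotted line parts the tables, which were scaled separately. For each gene the ENR control libraries lie above all others, from 4.99 CPM (Prss12) upwards, and Atp2c2 is the gene with the highest level in every group.

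The ENR control libraries did not order the genes in 1 way. Replicate 2, whose ribosomal RNA loci took 21.9% of counts against 31.0% and 35.5% in replicates 1 and 3, had the lowest Prelp and Atp2c2 and the highest Pnliprp1. Replicate 3 had the highest Prss12, Prelp and Atp2c2 and the lowest Pnliprp1. Among RANKL libraries, replicate 3 was lowest for Prss12 and Atp2c2 and replicate 2 for Prelp and Pnliprp1, at counts of 0 to 8. Transcript GC content was 56.6% for Prss12, 54.2% for Prelp, 50.2% for Pnliprp1 and 58.0% for Atp2c2. These values exceed those of 85.3%, 74.2%, 55.2% and 90.7% of protein-coding genes. With offsets for GC content the RANKL log2 changes were -5.77 (SE 0.501), -5.52 (SE 0.288), -4.49 (SE 0.307) and -3.98 (SE 0.188) in the same order.

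**Figure D2:**
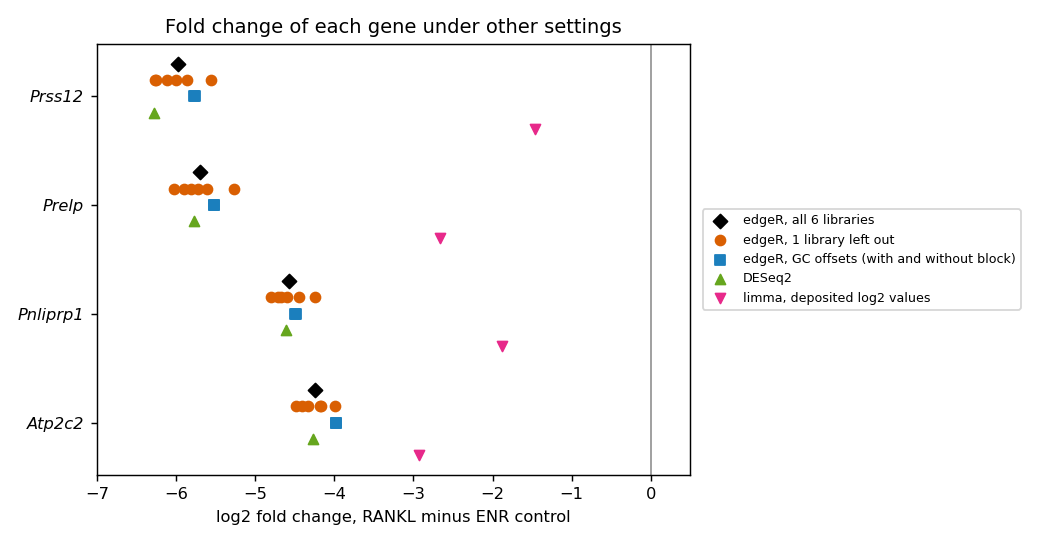
Log2 fold change of each gene, RANKL minus ENR control, by edgeR with all 6 libraries, with each library left out, with GC offsets, by DESeq2 and by limma on the deposited log2 values. The edgeR and DESeq2 points lie between -6.27 and -3.98, and the deposited log2 values give smaller falls, from -2.92 for Atp2c2 to -1.47 for Prss12.

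The RANKL II libraries were not in the contrast that picked the genes, although earlier results of these data were known then. The RANKL II level is set beside ENR control here across tables that were scaled separately. Prss12 had 3, 4 and 4 counts in RANKL II (0.311, 0.412 and 0.320 CPM), more than in any RANKL library. Prelp had 0, 1 and 1 counts (at most 0.103 CPM), fewer than in RANKL replicates 1 and 3. Pnliprp1 had 6, 4 and 8 counts (0.622, 0.412 and 0.641 CPM) and Atp2c2 15, 19 and 22 counts (1.55, 1.96 and 1.76 CPM). The highest RANKL II library thus stood at 0.412, 0.103, 0.641 and 1.96 CPM for Prss12, Prelp, Pnliprp1 and Atp2c2. The lowest ENR control libraries stood at 4.99, 17.1, 9.14 and 31.3 CPM. For each of the 4 genes this second set of RANKL organoids was below ENR control in 3 of 3 libraries. The ENR control side was the one used to pick the genes, so this order is not an independent check of the fall. No test was made across the tables, and how many of all genes showed this order was not counted.

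Levels of different genes were compared as CPM per kilobase of exon, over 2602 bases for Prss12, 3615 for Prelp, 2223 for Pnliprp1 and 3222 for Atp2c2. In ENR control Atp2c2 led at 12.1 ± 2.10 CPM per kilobase (SD, n = 3), followed by Prelp at 5.47 ± 0.806, Pnliprp1 at 4.79 ± 0.703 and Prss12 at 2.37 ± 0.493. Prelp and Pnliprp1 overlapped between libraries, and the other neighbours in this order did not. With RANKL the means were 0.613 for Atp2c2, 0.199 for Pnliprp1, 0.102 for Prelp and 0.0289 for Prss12, and Pnliprp1 overlapped with Prelp, and Prelp with Prss12. In RANKL II Prelp was last at 0.0169, after Atp2c2 (0.546), Pnliprp1 (0.251) and Prss12 (0.134). Atp2c2 was first in all 4 groups on this scale, and Prelp stood in the second place in ENR control and in the last in RANKL II and RANKL+CSRM617. These last places rested on 2 and 1 counts of Prelp, and with RANKL the mean of Prelp was above that of Prss12.

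**Figure D3:**
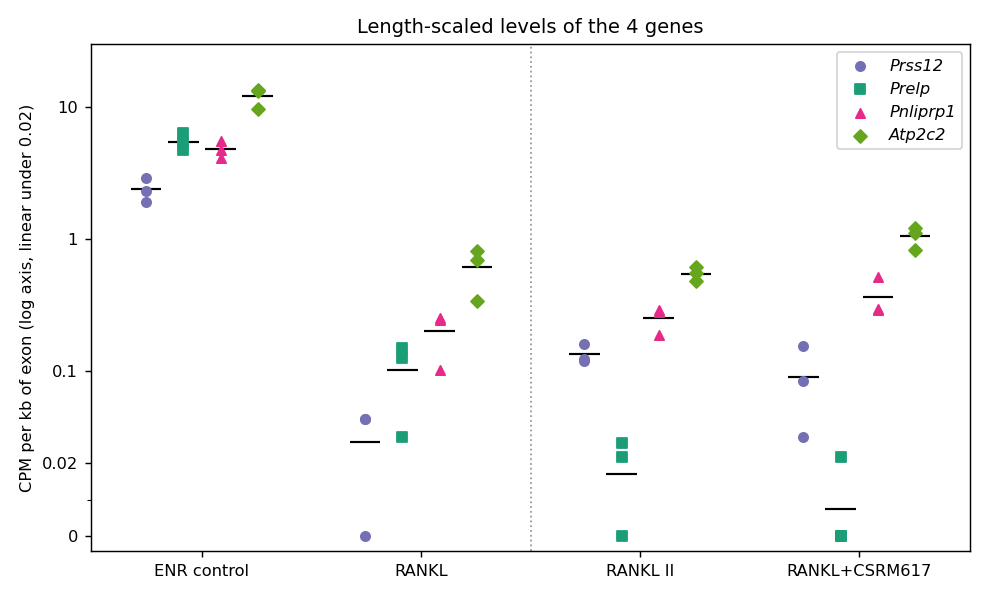
CPM per kilobase of exon (log axis, linear under 0.02) of the 4 genes in each library of the 4 groups; points are libraries, bars are means of 3, and the dotted line parts the separately scaled tables. Atp2c2 is highest in each group. Prelp moves from a mean of 5.47 in ENR control, above Pnliprp1 (with overlap) and Prss12, to 0.0169 in RANKL II, below both. The RANKL II value of Prelp rests on 2 counts, and in RANKL Prelp (0.102) is above Prss12 (0.0289).

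The second comparison asked what CSRM617 changed in organoids that also received RANKL. Its libraries were not in the contrast that picked the genes, but earlier results of these data were known then. Only Atp2c2 had enough counts to be tested. It rose from 15, 19 and 22 counts in RANKL II to 36, 44 and 33 with RANKL+CSRM617. The levels were 1.55, 1.96 and 1.76 CPM against 3.89, 3.58 and 2.66 CPM, without overlap between the groups. How many of all genes tested showed no overlap was not counted. The log2 change was 0.92 (SE 0.234, edgeR adjusted p = 0.000553, with 5.23e-05 to 0.0745 in 15 alternatives). Of all 14167 genes tested in this comparison 35.2% were called higher and 36.2% lower (71.4% in all), so a call in either direction was common. GC offsets ended the call at 0.49 (SE 0.240, edgeR adjusted p = 0.0624). The ribosomal RNA share (at most 6.71% against at least 15.3%) and the Malat1 share differed between these groups too, and their part in the rise was not tested. The level with CSRM617, 3.38 ± 0.641 CPM (SD, n = 3), was far under the 31.3 CPM of the lowest ENR control library in the other table.

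The other 3 genes did not pass the filter on low counts in this comparison, and their values are counts with intervals for counting error only. Pnliprp1 had 6, 4 and 8 counts in RANKL II and 6, 14 and 8 with CSRM617 (0.649, 1.14 and 0.645 CPM). The RANKL+CSRM617 libraries were all above those of RANKL II, by as little as 0.645 against 0.641 CPM. The ratio of RANKL+CSRM617 to RANKL II was 1.46 (exact 95% binomial interval 0.780 to 2.80). Without RANKL+CSRM617 replicate 2 its log2 value fell from 0.55 to 0.19. Prss12 had 3, 4 and 4 counts against 2, 1 and 5 (0.216, 0.0814 and 0.403 CPM with CSRM617), and the groups overlapped. Its ratio was 0.683 (interval 0.238 to 1.86), and the log2 value ran from -1.31 without RANKL+CSRM617 replicate 3 to -0.09 without replicate 2. With no filter, edgeR gave an adjusted p = 0.577 for Prss12 and 0.410 for Pnliprp1 (DESeq2 adjusted p = 0.695 and 0.534). Prelp had 2 counts over the RANKL II group and 1 over the RANKL+CSRM617 group, too few for a fold. For these 3 genes no change with CSRM617 was detectable at this depth.

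Neurotrypsin belongs to the trypsin family, and its known substrate agrin is a proteoglycan of basement membranes read by the receptors Lrp4 and Dag1. Of 20 listed proteases of the family other than Prss12, 9 were tested. With RANKL 3 rose and 5 fell, where 28.7% and 28% of all genes tested did, with a median log2 change of -0.33 against 0.00 over all genes tested. Tmprss2, a transmembrane protease of epithelia, rose by 0.90 (SE 0.0748, edgeR adjusted p = 6.74e-08). St14, the membrane protease matriptase, fell by 0.50 (SE 0.0792, edgeR adjusted p = 5.80e-05), and Tmprss4 fell by 0.33, or by 0.15 with GC offsets, where it no longer passed. Agrn rose from 447 ± 75.9 to 694 ± 34.4 CPM (SD, n = 3), or by 0.64 on the log2 scale (SE 0.106, edgeR adjusted p = 0.000102). Dag1, which encodes dystroglycan, rose by 0.33 and Lrp4 fell by 0.77, while the fourth gene of the list, Musk, had 0 counts in every library. Agrin RNA was thus higher in the RANKL libraries, where Prss12 had 0 or 1 counts, and a link between these genes was not tested. With CSRM617 3 proteases rose and 5 fell of 9 (2 and 6 with GC offsets), against 35.2% and 36.2% of all genes, with Tmprss2 at -0.34, St14 at 0.55 and Tmprss4 at 0.36 (0.09 and not called with GC offsets and the replicate block). Agrn rose by 0.79 and Dag1 by 0.43. Lrp4 was at 0.27, or 0.03 with GC offsets, which ended the call.

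None of the 12 listed relatives of Prelp among the small leucine-rich proteoglycans passed the filter in either comparison. Podn, the most abundant, had 6 counts over the ENR control group, 5 over RANKL, 2 over RANKL II and 18 over RANKL+CSRM617. With CSRM617 it was called higher, as 1 gene of the list, with no filter and by limma on the deposited values. Optc, which encodes opticin and lies 2305 bases from Prelp on chromosome 1, had 4, 2, 9 and 2 in this order. Chad had 0 in both groups of the first comparison, and Dcn and Lum, named after their values were seen, had 0 counts in all 12 libraries. Basement membrane genes, to whose products Prelp protein attaches, were measured for 11 of 16. Of these 6 rose and 4 fell with RANKL (28.7% and 28% of all genes), with a median of 0.50, also with Col4a1 (0 counts in ENR control) at its bound. Hspg2, which encodes perlecan, fell from 300.2 ± 21.3 to 84.8 ± 11.5 CPM (SD, n = 3), by 1.82 on the log2 scale (SE 0.101, edgeR adjusted p = 5.31e-10). The laminin genes Lama5 and Lamb3 rose by 0.91 and 0.92. With CSRM617 6 rose and 5 fell of 11, beside 35.2% and 36.2% of all genes (4 and 6 with GC offsets, the median going from 0.11 to -0.31). Lama5 and Lamb3 rose by 0.52 and 0.54, and Hspg2 was at 0.21, which turned to -0.31 with GC offsets.

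Pnliprp1 lies in a cluster with Pnlip, 47099 bases before it, and Pnliprp2, 15550 bases after it. Pnlip, which encodes the pancreatic lipase itself, had 0 counts in all 12 libraries. Pnliprp2, which encodes a lipase of galactolipids and milk fat, had 2519 counts over ENR control and 690 over RANKL. It fell from 150 ± 23.9 to 27.8 ± 5.63 CPM (SD, n = 3), by 2.44 on the log2 scale (SE 0.139, edgeR adjusted p = 1.73e-09). Colipase, Clps, the cofactor of pancreatic lipase, was named after its values were seen and fell by 1.69 (SE 0.223, edgeR adjusted p = 9.91e-06). Both had more reads with CSRM617 than in RANKL II, where Pnliprp2 rose by 0.91 (SE 0.0580, edgeR adjusted p = 3.09e-18) and Clps by 1.33 (SE 0.174, edgeR adjusted p = 7.29e-09). Of 7 lipase and colipase genes tested with RANKL 2 rose and 3 fell (28.7% and 28% of all genes), with a median of -0.16. The number that rose was 4 with no filter or by limma on the deposited values, and 1 without ENR control replicate 1 or RANKL replicate 2. Pnpla2, the triglyceride lipase of lipid droplets, rose by 0.93. Liph, a phosphatidic acid lipase, rose by 0.33, a call lost without ENR control replicate 1 (edgeR adjusted p = 0.0717), without RANKL replicate 2 (0.0528) and by DESeq2 (0.0510). With CSRM617 5 rose and 2 fell of 9 (71.4% of all genes were called), or 4 fell with GC offsets. Liph fell by 0.31, and Pnpla2 was at 0.22, or -0.19 with GC offsets.

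Atp2c2 has 1 close relative, Atp2c1, which encodes the ubiquitous Golgi pump SPCA1 and was named after its values were seen. Atp2c1 was at 64.4 ± 5.35 CPM in ENR control and 81.7 ± 2.35 CPM with RANKL (SD, n = 3). That was a rise of 0.34 (SE 0.0881, edgeR adjusted p = 0.00391), and with GC offsets it was 0.17 (edgeR adjusted p = 0.0586). Of 6 calcium pump genes tested other than Atp2c2, 4 rose and 1 fell with RANKL, with a median of 0.30, where 28.7% of all genes rose and 28% fell. With GC offsets 3 rose and none fell. Atp2b1, a plasma membrane pump, rose by 0.83 (SE 0.0758, edgeR adjusted p = 1.99e-07). Atp2a3, a pump of the endoplasmic reticulum, rose by 0.26 and missed the threshold without RANKL replicate 2 (0.24, edgeR adjusted p = 0.0796) or RANKL replicate 3 (0.23, edgeR adjusted p = 0.0613). Atp2a2, its ubiquitous relative, was at -0.19 (edgeR adjusted p = 0.0429), a call lost in 11 of 15 alternatives, with adjusted p up to 0.136. With CSRM617, where 71.4% of all genes were called, 3 pump genes rose and 3 fell (3 and 2 with GC offsets, the median turning from -0.14 to 0.11). Atp2a2 rose by 0.29, Atp2a3 by 0.65 and Atp2b1 by 0.11, and Atp2c1 was at -0.38, or -0.03 with GC offsets.

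Of 10 tested genes of calcium entry and store release 6 fell and 1 rose with RANKL (5 and 3 with GC offsets), with a median of -0.49. Of all genes tested 28% fell and 28.7% rose. Itpr3, an IP3-gated release channel, fell by 1.198 (SE 0.0960, edgeR adjusted p = 4.12e-08), and Vdr, the vitamin D receptor, fell by 1.71 (SE 0.0820, edgeR adjusted p = 9.95e-11). S100g, the calcium carrier calbindin-D9k and named after its values were seen, fell by 2.92 (SE 0.289, edgeR adjusted p = 4.34e-07). Stim2, a calcium sensor of the endoplasmic reticulum, rose by 0.37. With CSRM617 7 of these genes rose and 1 fell of 10 (6 and 2 with GC offsets). Of all genes 35.2% rose and 36.2% fell with CSRM617. Itpr3 was at 0.60, Stim2 at 0.44 and S100g at -0.96. Vdr was at -0.03 (edgeR adjusted p = 0.461), and at -0.25 with GC offsets, which was called. Calcium-binding proteins of the secretory pathway gave 2 higher and 2 lower of 10 with RANKL (1 and 3 with GC offsets), where 56.7% of all genes were called. Their median was 0.03 and turned to -0.11 with GC offsets. The number that rose was 4 without ENR control replicate 2. It was 1 by DESeq2 and without ENR control replicate 1 or 3 or RANKL replicate 1, where Rcn2 (0.39, edgeR adjusted p = 0.0231), named after its values were seen, lost its call. Calr, the chaperone calreticulin, rose by 0.37 (SE 0.0781, edgeR adjusted p = 0.000892), while Hspa5 was at 0.09 and was called without ENR control replicate 2 (0.14). Canx was at 0.02, was called at 0.14 without ENR control replicate 2 and at -0.25 with GC offsets. With CSRM617 7 rose and 2 fell of 10 (35.2% and 36.2% of all genes), with Calr at 0.96 and Hspa5 at 0.62. Canx was at 0.06 (edgeR adjusted p = 0.0604) and was called in 9 of 15 alternatives, at 0.58 with GC offsets.

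**Figure D4:**
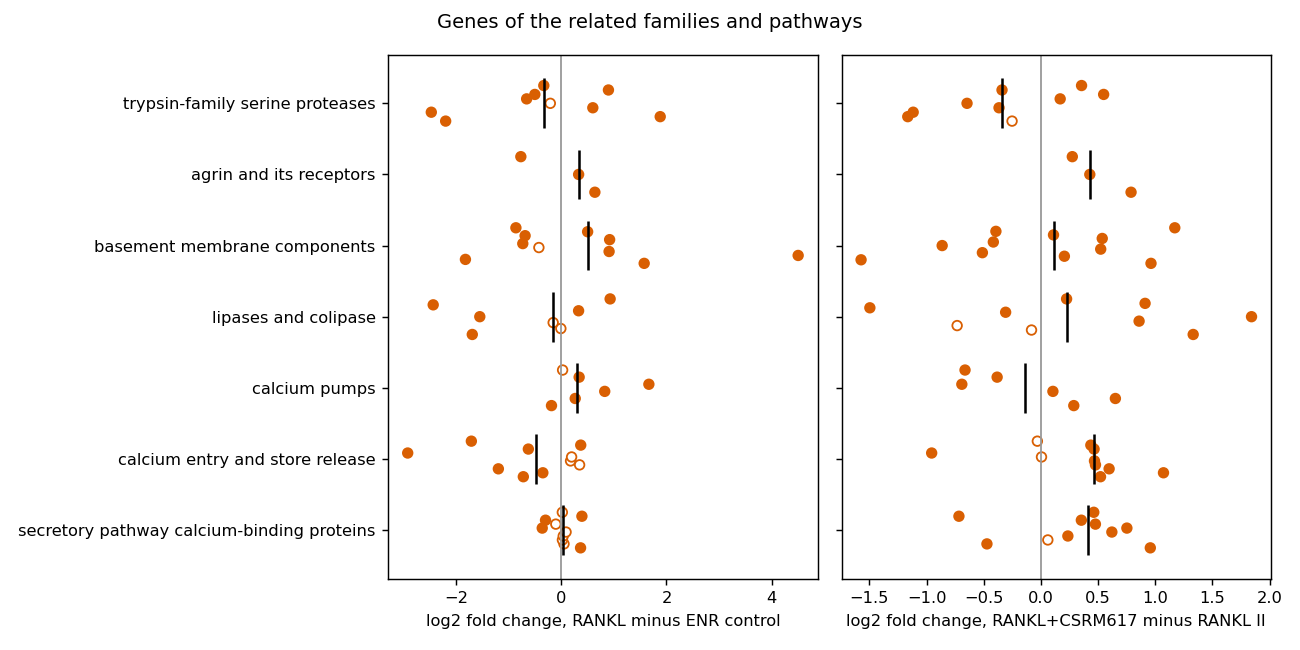
Log2 fold change of each tested gene of 7 lists related to the 4 genes, left RANKL minus ENR control and right RANKL+CSRM617 minus RANKL II; filled points passed the adjusted p under 0.05, open points did not, and black bars are list medians. Col4a1, with 0 counts in ENR control, is not drawn on the left; the list of small leucine-rich proteoglycans had no tested gene, and the medians on the left run from -0.49 to 0.50.

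Genes beside the 4 loci were examined as the nearest 2 protein-coding genes on each side, a rule added after the values were seen. Of 16 neighbours 15 matched an entry of the tables and 6 passed the filter with RANKL. Pnliprp2 and Mettl14 fell (Mettl14, an RNA methyltransferase subunit beside Prss12, by 0.31), Atp2b4 rose by 1.67, and Sec24d, Btg2 and Cotl1 did not pass. Sec24d, a coat protein of vesicles 81272 bases from Prss12, was at -0.10, Btg2 near Prelp at 0.27 (0.33 and called with GC offsets) and Cotl1 near Atp2c2 at -0.10 (0.19 with GC offsets). Kcng4, also near Atp2c2, had 0 counts over ENR control and 39 over RANKL. Prss12, Prelp and Atp2c2 each overlap annotated noncoding or unclassified loci. Gm35065 lies on the opposite strand of Prss12 and Gm15851 on that of Prelp, and since the strand setting of the counting is not given, reads of such partners cannot be told apart.

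The genes whose profile was most like each of the 4 were found by Pearson's r of log2(CPM + 0.5) over the 12 libraries, among 14476 genes. The libraries fall into 4 groups with ENR control set apart, so r is a description of that shared step, without a test. Prelp was most like Pdgfa (r = 0.995), a growth factor gene, then Chrm3 (0.993) and Bckdk (0.992). On 1 scale for all 12 libraries Pdgfa stood at 300.0 CPM in ENR control, 22.6 and 15.5 in the RANKL and RANKL II groups, and 16.7 with CSRM617. Atp2c2 was most like Cracr2a (0.991), which encodes a calcium-binding GTPase, with 98.1, 10.6, 7.57 and 14.5 CPM in the same order, then Gpr180 (0.990) and Engase (0.990). Cracr2a, like Atp2c2, had its higher value of the second table with CSRM617. Pnliprp1 was most like Golm1 (0.986), Acpp (0.985) and Rpsa-ps10 (0.984), a pseudogene whose reads may be shared with its parent. Prss12 was most like Gstt1 (0.987), Slc1a5 (0.985) and Pxylp1 (0.982). Gstt1, for comparison, had 37.6 CPM in ENR control and 10.3 in RANKL, and Chrm3 59.9 and 4.28.

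Markers of several cell types moved in the same libraries. Of all genes tested 28.7% rose and 28% fell with RANKL, and 35.2% and 36.2% with CSRM617. The marker genes named here were named after their values were seen. Of 10 tested Paneth cell markers 9 fell with RANKL and Mmp7 rose. Of the 9, Nupr1 (edgeR adjusted p = 0.0443) lost its call with GC offsets (0.142) and with the replicate block (0.0683). The list of 11, none at 0 counts in either group, summed to 560 to 954 CPM in ENR control and 387 to 402 CPM with RANKL. With CSRM617 8 of 10 Paneth markers rose and 1 fell, and the sum went from 574 to 588 to 926 to 955 CPM. Stem cell markers gave 3 higher and 5 lower of 10 with RANKL, at 3709 to 4319 and 2066 to 2487 CPM, with none at 0. With CSRM617 3 stem cell markers rose and 4 fell (2 and 6 with GC offsets), and the sum went from 1326 to 1332 CPM in RANKL II to 681 to 729 CPM. Of the M cell markers 10 of 10 rose with RANKL, with a median of 5.62. Their sum was 118 to 122 CPM in ENR control, where Gp2 and Sox8 had 0 counts, and 1290.0 to 1348 CPM with RANKL. With CSRM617 4 M cell markers rose and 5 fell, at 1356 to 1386 and 1332 to 1352 CPM. Of the enterocyte markers 4 rose and 6 fell with RANKL, at 1315 to 1659 and 2522 to 3530.0 CPM, and 10 of 10 rose with CSRM617, at 3750.5 to 3814 and 9344 to 9670.4 CPM, with none at 0. With RANKL goblet cell markers gave 4 higher and 5 lower of 10, at 1156 to 1196 and 2021 to 2887 CPM, with none at 0. With CSRM617 5 goblet cell markers rose and 3 fell, at 2984 to 3076 and 3970 to 4152 CPM. Of 5 tested enteroendocrine markers 0 rose and 1 fell with RANKL, and of 6 with CSRM617 3 rose and 0 fell. Both acinar markers that could be tested fell with RANKL. They were Bhlha15, a transcription factor of secretory cells (2.11 on the log2 scale), and Ctrb1, a chymotrypsinogen gene (3.10). The acinar list summed to 16.9 to 23.2 CPM in ENR control and 4.47 to 5.39 CPM with RANKL. With CSRM617 the 1 acinar marker tested rose, and the sum went from 3.94 to 4.64 CPM in RANKL II to 6.37 to 8.01 CPM. The part of these cell types in the levels of Prss12, Prelp, Pnliprp1 and Atp2c2 was not tested.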

How the data were processed

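The authors deposited raw gene counts in 2 tables, 1 per comparison, and 2 tables of normalized values whose range showed a log2 scale. Per the submitters' processing notes, STAR, HTSeq 0.13.5, DESeq2 1.34.0 and the build mm10 (GRCm38) were used; the annotation, the strand setting and the log2 transformation are not stated in these sources. Each table was fitted separately with edgeR 4.0.16 in R 4.3.3 (quasi-likelihood, robust, TMM, filterByExpr with a minimum count of 10), with Benjamini-Hochberg adjustment over all genes tested and a threshold of 0.05. Fold changes are log2 values with SE. CPM are counts over TMM-scaled library sizes. GC content and exon lengths came from GENCODE M21, which matched 53647 of 55335 entries. Alternatives were DESeq2 1.42.0, other factors and filters, limma 3.58.1 on the deposited log2 values, a replicate block, GC offsets and leaving out each library. The fits were tested on simulated data. Named genes were the 4 genes, the 3 most abundant genes of each related list and the 3 most similar profiles per gene. Also named were Musk, markers with 0 counts, genes beside or overlapping the loci, and those stated to be named after their values were seen. The members and lists were chosen with earlier results of these data known.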

Additional observations from a re-analysis of the deposited data

How the results depend on the processing

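The falls with RANKL kept their direction in all 15 alternatives for each of the 4 genes. The deposited log2 values, analysed with limma, gave smaller changes of -1.47 for Prss12, -2.66 for Prelp, -1.88 for Pnliprp1 and -2.92 for Atp2c2; in that table Prss12 is listed at 3.13 in the RANKL library with 0 counts. DESeq2 gave -6.27 for Prss12. Leaving out 1 library gave -6.26 to -5.55 for Prss12, -6.03 to -5.26 for Prelp, -4.80 to -4.24 for Pnliprp1 and -4.48 to -3.99 for Atp2c2. The rise of Atp2c2 with CSRM617 lost its call with GC offsets (0.49) and with GC offsets plus the replicate block (0.48), and was 0.84 to 1.08 with 1 library left out. The cause of these shifts was not tested. The replicate block gave 0.91 for Atp2c2, and 7701 and 10095 called genes against 7699 and 10114; same-numbered libraries correlated at -0.00689 to 0.0569 (RANKL) and -0.0111 to 0.0127 (CSRM617) in their deviations from group means, so the numbers did not show a pairing. Of 480 counts of called genes in the related lists under alternatives, 31 moved by over 1.5 times or to or from 0. Depth limits the low groups: Prss12, Prelp and Pnliprp1 rest on 0 to 14 counts per library outside ENR control. Leaving a group with 2 libraries assumes that they vary like the rest.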

Other observations

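Among the basement membrane genes, chosen here after their values were seen, Lama3 had 32 counts over the ENR control libraries and 1078 over RANKL, and rose by 4.50 on the log2 scale (SE 0.176, edgeR adjusted p = 1.13e-11). Col4a1 went from 0 counts over ENR control to 229 over RANKL. The proteases Prss23 and Cfi, also named after their values were seen, fell with RANKL by 2.47 (SE 0.128, edgeR adjusted p = 2.35e-10) and 2.20 (SE 0.244, edgeR adjusted p = 1.57e-06). With CSRM617 Prss23 fell again by 1.12 (SE 0.0885, edgeR adjusted p = 4.15e-15), whereas Cfi was at -0.25 (SE 0.281), with an edgeR adjusted p = 0.424 and a range of 0.211 to 0.854 in the alternatives.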
